A study of Bos taurus with 6 samples.

Results

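Input-recurrent regions of the bovine blastocyst genome are described here, limited to those for which the antibody libraries seldom gave a peak. The peaks of all 6 libraries that overlapped by at least 1 bp were joined, in a chain, into 5619 regions, of which 4905 lay on chromosomes 1 to 29. The members were chosen by their peak calls. A region on chromosomes 1 to 29 was kept when it held a peak of both Input libraries and a peak of at most 1 of the 4 immunoprecipitated libraries. This left 240 regions. All positions are those of the bosTau8 build of the bovine genome.

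The embryos were produced by in vitro fertilization, cultured to day 8 and crosslinked at 192 h after insemination. Replicate 1 was a pool of 669 blastocysts and replicate 2 a pool of 677, each collected over several cultures, so that n was 2 pools and every library averaged the inner cell mass and the trophectoderm of many embryos. All embryos had fetal calf serum in the medium during culture, and crosslinking took place with sodium butyrate, an inhibitor of histone deacetylases, in the buffer. After shearing, 1 pool gave 3 libraries. These were Input, which saw no antibody, MAT2A-ChIP, which was incubated with a mouse monoclonal antibody against MAT2A, and IgG control, which was incubated with a mouse IgG2B isotype antibody. All 3 kinds of library therefore shared embryos, crosslinking and shearing within a replicate.

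MAT2A is the catalytic subunit of the enzyme that makes S-adenosylmethionine, the methyl donor for DNA and histones, and it also associates with chromatin regulators. Input is the chromatin before any selection. It is not flat, since shearing, amplification and the mapping of reads to copied or repeated sequence all leave local heaps of reads, and a peak caller run on Input alone reports those heaps. Input is sequenced so that such positions can be recognised among the peaks of the antibody libraries, here MAT2A-ChIP and IgG control. For the members, the Input peak was listed in both pools while at most 1 of the 4 antibody libraries had a listed peak. The lists hold no read counts, so a missing peak means only that the caller's threshold was not reached there, and a loss of DNA at these positions was not measured. Neither the sequence nor the gene annotation of bosTau8 was used here, so no repeat class, base composition or gene position is given for the members themselves.

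Both Input libraries held a peak in 995 autosomal regions. The members were 240 of these, or 24.1% (95% Wilson interval 21.6 to 26.9%, which covers counting error only), and the rule fixed this count. Of the 240 members, 106 held no peak of any antibody library, which was 10.7% of the Input-recurrent regions, and 134 held a peak of exactly 1. A further 125 regions had peaks of 2 antibody libraries, 135 of 3 and 495 of all 4. The same count was made for the antibody libraries. Of the 640 regions recurrent in MAT2A-ChIP, 28 (4.38%) had a peak of at most 1 of the other 4 libraries. Of the 639 regions recurrent in IgG control, 25 did (3.91%). Recurrent regions with at most 1 peak outside their own library type were thus mostly Input regions, and both antibodies gave small numbers. The peak score, which rises with depth, was 100 or more for 48.2% and 48.0% of the peaks of Input 1 and 2, 29% and 31.3% of those of MAT2A-ChIP 1 and 2 and 28.1% and 33.1% of those of IgG control 1 and 2. The study's mapping summary gives Input the most uniquely mapped reads of each replicate, and the part of depth in these counts was not tested.

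**Figure D1:**
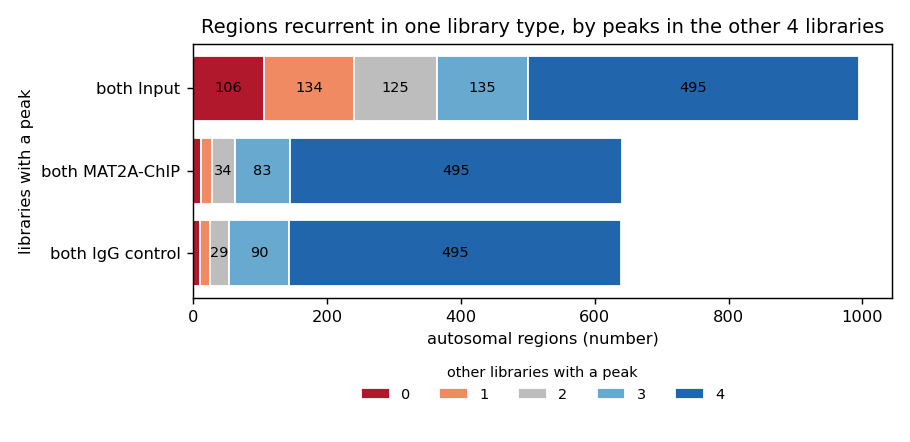
Autosomal regions recurrent in both replicates of Input, MAT2A-ChIP or IgG control (rows), with the number of regions on the horizontal axis and colours for how many of the other 4 libraries held a peak. The 106 and 134 regions at the left of the Input bar are the members, and the corresponding segments of the MAT2A-ChIP bar hold 12 and 16 regions and those of the IgG control bar 10 and 15.

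The shares were counted again with shorter lists. When only the 1000 highest-scoring peaks of each library were used, an alternative chosen after seeing the data, 96 of 632 Input-recurrent regions (15.2%) had a peak of at most 1 other library, against 29 of 520 (5.58%) for MAT2A-ChIP and 30 of 526 (5.70%) for IgG control. When peaks under a score of 100 were dropped from all lists, the shares were 28.8%, 2.03% and 2.92%. Input had the highest share in each case. The minimum of 100 kept 48.2% and 48.0% of the Input peaks but only 28.1% to 33.1% of those of an antibody library. By construction it thus dropped more antibody peaks than Input peaks, which raises the Input share. With this minimum in the Input lists only, 54 regions were members, 9.05% of the Input-recurrent ones. Of the 240 members, 71 were among the 96 and 54 were among the 172 members found with the minimum score of 100. These shares share the libraries that they compare and were not tested.

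The 4 antibody libraries contributed unequally to the 134 members that held 1 antibody peak. MAT2A-ChIP 1 had a peak in 40 members (16.7%), and its peaks lay in 72% of the Input-recurrent regions and 34.4% of all autosomal regions. MAT2A-ChIP 2 had a peak in 45 members (18.8%), against 69.2% of the Input-recurrent and 29.6% of all autosomal regions. IgG control 1 had a peak in 16 members (6.67%), against 66.8% and 32%. IgG control 2 had a peak in 33 members (13.8%), against 70.3% and 30.5%. The shares among the members are low because the rule made them so. MAT2A-ChIP supplied 85 of the 134 peaks and IgG control 49, and IgG control 1 was the lowest library although its list was longer than those of MAT2A-ChIP 2 and IgG control 2. By replicate, 56 of the 134 peaks came from replicate 1 and 78 from replicate 2.

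The score of a peak is -10 times the log10 of its p-value, starts at 50 in these lists and was not normalized between them, so ranks are given within a list and raw scores of different lists stand side by side only. The members' strongest Input peaks had scores from 50 to 285.5 in Input 1, with a median of 88.2 and quartiles of 66.6 and 127.0. In Input 2 they ran from 50.2 to 313.4, with a median of 88.9 and quartiles of 67.1 and 119.1. These medians lay above 44.5% and 44.9% of the peaks of the Input 1 and Input 2 lists, so in each library taken alone the median was close to the middle of the list. By the weaker of the 2 Input scores, 106 of the 240 members lay from 50 to 70, near the lowest score listed. The other 755 Input-recurrent regions had medians of 200.2 in Input 1 and 183.2 in Input 2. Both Input scores were 100 or more in 54 members (22.5%) and in 543 of the 755 others (71.9%). Since the score of a peak also decides whether it is listed, these values describe the members and were not tested.

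**Figure D2:**
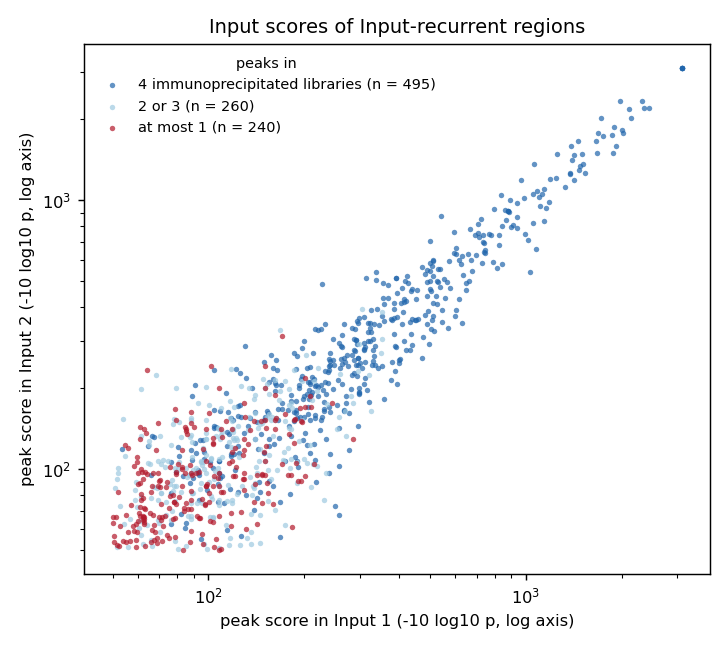
Score of the strongest Input 1 peak (horizontal, log axis) and Input 2 peak (vertical, log axis) of each Input-recurrent autosomal region, coloured by the number of antibody libraries with a peak. The 240 members lie at 285.5 or less in Input 1 and 313.4 or less in Input 2, mixed with regions that had peaks of 2 to 4 antibody libraries, and no member is in the upper part of the plot.

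The share of members fell steadily as the weaker of the 2 Input scores rose. Of 183 Input-recurrent regions with a lower score from 50 to 70, 106 were members (57.9%, 95% Wilson interval 50.7 to 64.8%), and 14 (7.65%) had peaks of all 4 antibody libraries. From 70 to 100, 80 of 215 were members (37.2%, 31.0 to 43.8%). From 100 to 150, 37 of 167 were members (22.2%, 16.5 to 29%), and from 150 to 200, 16 of 118 (13.6%, 8.52 to 20.9%). At 200 or more, 1 of 312 was a member (0.321%, 0.0566 to 1.79%) and 300 (96.2%) had peaks of all 4. Members were thus the larger part only of the regions with a lower score under 70, and the strongest Input regions were nearly all listed in every library. In the same ranges of score, though of other lists, the shares for regions recurrent in MAT2A-ChIP or IgG control were lower. From 50 to 70, 20 of 159 MAT2A-ChIP regions (12.6%) and 18 of 144 IgG control regions (12.5%) had a peak of at most 1 other library, and from 100 to 150 this was 0 of 131 and 2 of 124 (1.61%). A score has another depth behind it in each list, so these values stand side by side and were not tested.

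**Figure D3:**
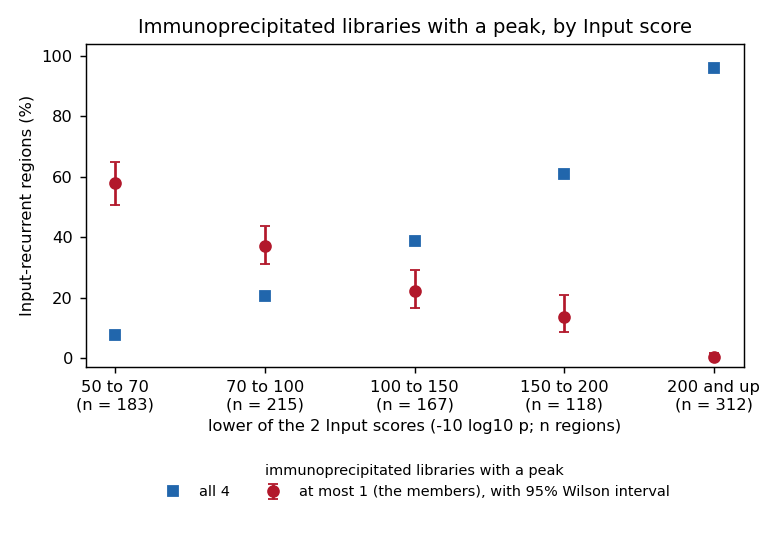
Percent of Input-recurrent autosomal regions (vertical axis) that were members (circles, with 95% Wilson intervals for counting error) or had peaks of all 4 antibody libraries (squares), by the lower of the 2 Input scores. Members fall from 57.9% at 50 to 70 to 0.321% at 200 and up, while regions with all 4 rise from 7.65% to 96.2%.

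The Input scores of the 2 pools were compared across regions. Across the 240 members, Pearson's r of the log2 scores was 0.51 and Spearman's rho was 0.50. The values were much the same in the 125 regions with 2 antibody peaks (0.46 and 0.44) and the 135 with 3 (0.53 and 0.50), and were 0.93 and 0.92 in the 495 with all 4, whose scores span a wider range. These are descriptions across regions of the same 2 libraries, and neighbouring regions are not independent. The rule requires the peaks to meet, so their positions are a description only. The centres of the Input 1 and Input 2 peaks were a median of 14.5 bp apart, with a 90th percentile of 102.3 bp. The part common to both peaks made up a median of 84.0% of their joint length, against 86.4% in the regions with peaks of 2 antibody libraries, 84.0% with 3 and 89.8% with all 4. Centres were a median of 18, 22.5 and 17 bp apart in these 3 classes. In every member an Input 1 peak overlapped an Input 2 peak directly, so none depended on a link through another list.

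Member widths ran from 112 to 3766 bp, the median being 311.5 bp and the quartiles 209.3 and 439.8 bp. Their strongest Input peaks had median widths of 281.5 bp in Input 1 and 280.5 bp in Input 2. Regions under 200 bp made up 23.3% of the members (56), 27.4% of the 106 members with no antibody peak (29) and 20.1% of the 134 with 1 (27). This was 20.8% with 2 antibody peaks, 12.6% with 3 and 8.69% with all 4, so the members with 1 were close to the regions just outside the rule. The regions with peaks of all 4 antibody libraries were the widest, with a median of 502 bp. Width follows from the peaks that the rule used and was not tested.

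On the 2 sides of the rule's limit the values were close. The 134 members with a peak of exactly 1 antibody library had median scores of 94.7 in Input 1 and 94.5 in Input 2 and a median width of 338 bp. The 125 regions with peaks of 2 antibody libraries, which the rule left out, had medians of 98.4, 92.3 and 329 bp. The 106 members with no antibody peak had medians of 83.5, 83.5 and 293 bp. The 125 regions were formed by every pairing of the antibody libraries. MAT2A-ChIP 2 with IgG control 2 gave 28, MAT2A-ChIP 1 with IgG control 1 gave 27, MAT2A-ChIP 1 with IgG control 2 gave 23, both MAT2A-ChIP libraries gave 19, MAT2A-ChIP 2 with IgG control 1 gave 15 and both IgG control libraries gave 13. The commonest partners thus came from the same pool and not from the same antibody. MAT2A-ChIP 1 with IgG control 2, which share neither, followed closely, and the differences between pairings were not tested. Of the 4 strongest regions just outside the limit, chr9:49834153-49834578 had scores of 295.3 in Input 1, 231.2 in Input 2, and the antibody peaks scored 58.4 (MAT2A-ChIP 1) and 61.3 (IgG control 1). At chr14:83223-83406 there were 222.0 and 238.7 in the Input lists, 125.6 in MAT2A-ChIP 2 and 109.2 in IgG control 2. The region chr24:56916823-56917245 had 219.5 and 195.9 in Input, 86.9 in MAT2A-ChIP 2 and 86.1 in IgG control 2. At chr27:28771783-28771922, inside a run of members described further on, the Input scores were 197.8 and 213.1, with 98.3 in MAT2A-ChIP 2 and 134.2 in IgG control 1. In Input score these regions overlapped with the strongest members.

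The strongest members were ranked by the percentile of their weaker Input peak within its own list. The first was chr14:950538-950699, a region of 162 bp with scores of 202.2 in Input 1 and 219.4 in Input 2, above 77.8% and 80.4% of those lists. IgG control 2 also had a peak there, with a score of 133.4, and MAT2A-ChIP 1, MAT2A-ChIP 2 and IgG control 1 had none. It was the only member whose Input scores were both 200 or more. The next, chr27:28731331-28731496, was the strongest member with no antibody peak. Its scores were 209.8 in Input 1 and 188.2 in Input 2, and the peaks of 162 and 159 bp had centres 5.5 bp apart. The closest antibody peak, of IgG control 1 with a score of 61.4, lay 284 bp away without touching it.

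Of the other 6 strongest members, 3 had a peak of MAT2A-ChIP 1. The region chr14:2189634-2189799 had scores of 245.8 in Input 1, 176.5 in Input 2 and 158.2 in MAT2A-ChIP 1, which was the highest score that MAT2A-ChIP 1 reached in a member. No other antibody peak lay within 100 kb of it. The region chr13:5347784-5348245 had scores of 210.7 and 171.1 in Input 1 and 2 and only 57.8 in MAT2A-ChIP 1. At chr22:42397120-42397311 the scores were 194.1, 169.9 and 106.6, and an IgG control 1 peak with a score of 75.4 began 186 bp away. The MAT2A-ChIP 1 peaks at these 3 members lay above 83.8%, 36.6% and 72.9% of its list.

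MAT2A-ChIP 2 supplied the antibody peak of another 2 of these members. The region chr20:72037009-72037623 had the highest Input 2 score of all members, 313.4, with 170.2 in Input 1 and 86.1 in MAT2A-ChIP 2. The region chr1:145450367-145450518, 152 bp wide, had scores of 161.9 in Input 1, 189.5 in Input 2 and 82.8 in MAT2A-ChIP 2. In the last, chr6:6602632-6603001, the antibody peak came from IgG control 1 with a score of 57.3, beside 201.0 and 170.9 in Input 1 and 2, and another IgG control 1 peak with a score of 322.2 lay 2.56 kb away. At this member IgG control 1 thus had a weak peak on the Input position and a strong one beside it.

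The 134 single antibody peaks were mostly of middling rank in their own lists. The median score was 71.6 in MAT2A-ChIP 1 (range 50.01 to 158.2), 74.0 in MAT2A-ChIP 2 (50.5 to 252.6), 67 in IgG control 1 (50.7 to 121.8) and 77.7 in IgG control 2 (51.2 to 185.8). These medians exceeded 55.7%, 54.4%, 52.3% and 55.9% of the respective lists. Scores were under 70 in 64 of the 134 peaks and 100 or more in 22. In 92 of the 134 members the antibody peak lay wholly inside the Input peaks, a count not compared with other regions. Median widths of the antibody peaks were 278.5, 205, 212.5 and 262 bp in MAT2A-ChIP 1, MAT2A-ChIP 2, IgG control 1 and IgG control 2, against 346.5, 263.5, 265.5 and 286.5 bp for the mean of the 2 Input peaks in the same members. In all 4 libraries the antibody peak was thus the narrower at the median. The whole lists showed the same order. Their median peak widths were 276.5, 287, 286 and 301 bp for the 4 antibody libraries in that order. Input 1 and Input 2 had 317 and 304 bp, so the narrower antibody peak is not particular to the members.

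In 58 of the 134 members (43.3%) the antibody peak ranked higher in its list than both Input peaks did in theirs. This share was not compared with other regions. The highest peak of MAT2A-ChIP 1 in a member is described above, and that of each other antibody library is given here. At chr27:23703377-23703504, a region of 128 bp, MAT2A-ChIP 2 had a score of 252.6, above 92.0% of its list, while Input 1 and Input 2 had 162.7 and 152.3, above 71.5% and 69.0% of theirs. At chr3:29946614-29946794, IgG control 2 had 185.8, above 86.4% of its list, and Input 1 and Input 2 had 118.9 and 140.8. No other region of any library lay within 10 kb of it. The highest score of IgG control 1 in a member, 121.8, was at chr8:96227251-96227442, with 108.5 in Input 1 and 86.9 in Input 2. The rule itself keeps such a peak from being shared with the other replicate of its antibody.

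The widest members had another form. At chr18:57622307-57626072, 3766 bp wide and without an antibody peak, the Input 1 peak spanned the whole region with a score of 196.4 and the Input 2 peak 2168 bp of it with a score of 151.5. The region chr20:55750858-55753762, 2905 bp wide, was built from 4 Input peaks and an IgG control 2 peak with a score of 78.1, and its strongest peaks had 163.9 in Input 1 and 155.3 in Input 2. At chr3:8109785-8111908, 2124 bp wide, the scores were 170.1, 105.2 and 62.1 in Input 1, Input 2 and MAT2A-ChIP 2. The region chr17:64498011-64499764 joined Input peaks of 1022 and 924 bp that shared 10.9% of their joint length, with scores of 78.5 and 56.0. At chr29:30254446-30255764 the scores were 102.4 in Input 1 and 243.0 in Input 2, no antibody peak overlapped the 1319 bp, and an IgG control 1 peak with a score of 288.3 began 82 bp away. In these 5 members the Input centres were 220.5 to 894.5 bp apart, against 0.5 to 59 bp in the 8 strongest members. The 5 were picked for width, which grows as the joined peaks lie farther apart, so this difference follows in part from the choice.

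The antibody libraries often had a peak near a member even where they had none on it. Among the 106 members with no antibody peak, 25 (23.6%) had one within 500 bp, 36 (34.0%) within 1 kb and 81 (76.4%) within 10 kb, and the median distance was 2116 bp. For the 741 autosomal regions called in a single Input library and nowhere else, the corresponding shares were 7.15%, 12.4% and 30.1%, with a median of 74770 bp. For the other 755 Input-recurrent regions, counting antibody peaks outside the region itself, they were 24.1%, 39.1% and 75.8%, with a median of 1622 bp, so the members' values were near those of the other Input-recurrent regions. Compared with the single-Input regions, the members lay in denser surroundings, which moves with this difference, and its part in it was not tested. A median of 2 other regions lay within 10 kb of a member, as for the other Input-recurrent regions, against 0 for all autosomal regions. Only 40 members (16.7%) had no other region within 10 kb, against 19.5% of the other Input-recurrent regions and 69.4% of all autosomal regions. A region called in all 6 libraries lay within 10 kb of 116 members (48.3%) and of 94 of the 741 single-Input regions (12.7%). This was not counted for the other Input-recurrent regions, so it is not shown to be particular to the members. Close to these 116 members, other positions were thus listed in every library, while the remaining members had no such position within 10 kb.

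The members were clustered. With less than 100 kb between neighbours, 140 of the 240 (58.3%) had another member beside them and 100 stood alone. Runs of 3 or more numbered 22 and held 98 members (40.8%). The other Input-recurrent regions were grouped more often still, as 579 of the 755 (76.7%) had another of their kind within this distance. They are also more numerous, and this difference was not tested. Outside the 22 runs, 142 members remained, so the members do not come from a few places alone.

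The run with the most members held 12 on chromosome 1, from 145299841 to 145450518, a span of 150.7 kb. In this span lay 80 regions, of which 58 were Input-recurrent and 31 were called in all 6 libraries. The libraries had 70 and 65 peaks there in Input 1 and 2, 47 and 53 in MAT2A-ChIP 1 and 2, and 47 and 46 in IgG control 1 and 2. Members scored 62.2 to 183.2 in Input 1 and 52.7 to 189.5 in Input 2, and 4 of the 12 had no antibody peak. The gaps between neighbouring members were 0.652 to 53.6 kb. The run was thus a dense field with 5.31 regions per 10 kb, and the members were interspersed with regions that every library listed.

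On chromosome 29, 9 members lay between 30227839 and 30380004, a span of 152.2 kb with 58 regions, 47 of them Input-recurrent and 26 called in all 6 libraries. Their scores were 55.3 to 147.6 in Input 1 and 50.8 to 243.0 in Input 2. On chromosome 27, the 9 members between 28473485 and 28792308 were spread over 318.8 kb with 46 regions, of which 18 were Input-recurrent and 6 were called in all 6 libraries. Of these 9 members, 5 had their antibody peak in MAT2A-ChIP 2 and none in an IgG control library. MAT2A-ChIP 2 had 21 peaks in this span, while there were 11 in MAT2A-ChIP 1, 11 in IgG control 1 and 12 in IgG control 2. MAT2A-ChIP 1 thus had as many peaks there as IgG control 1.

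The remaining runs named by the rule were smaller. On chromosome 14, 6 members lay between 750734 and 952662 among 20 regions, and 4 of the 6 had no antibody peak. On chromosome 7, 5 members lay within 40.5 kb, from 56581603 to 56622090, among 23 regions of which 8 were called in all 6 libraries. On chromosome 8, 5 members lay between 74542549 and 74725603 among 22 regions. Together the 6 runs held 46 members, 19.2% of all.

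**Figure D4:**
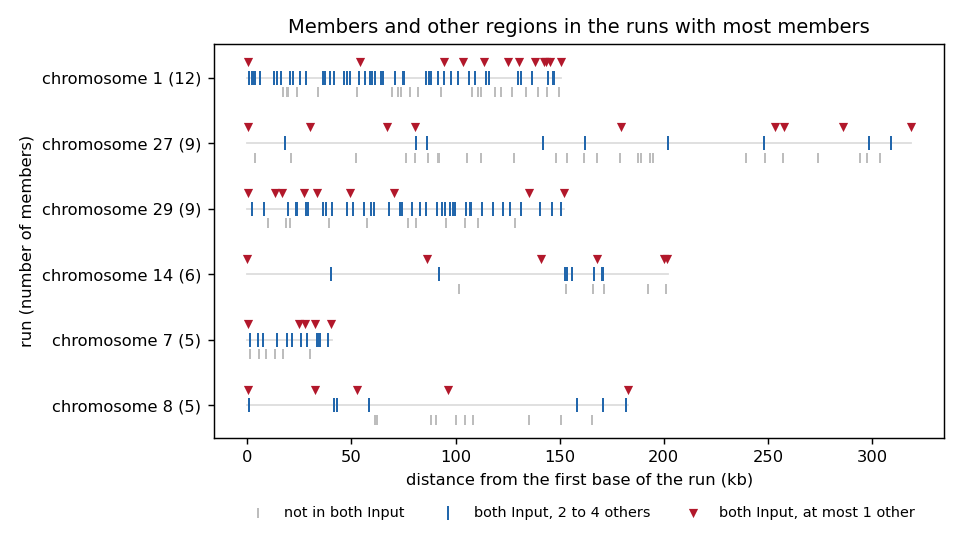
Position of the regions in the 6 runs with most members, in kb from the first base of each run (horizontal axis), with triangles for the members, blue ticks for Input-recurrent regions with peaks of 2 to 4 antibody libraries and grey ticks for all other regions. The 12 members of the chromosome 1 run lie among 46 blue and 22 grey ticks, and the chromosome 27 run is the longest of the 6 at 318.8 kb.

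Members were found on 28 of the 29 autosomes, with none on chromosome 12, where 4 regions were Input-recurrent. Chromosome 14 had the most, 23 of its 111 Input-recurrent regions (20.7%), followed by chromosome 7 with 18 of 58 (31.0%), chromosome 8 with 17 of 65 (26.2%), chromosome 17 with 16 of 70 (22.9%) and chromosome 1 with 15 of 84 (17.9%). These 5 chromosomes, picked for holding the most members, carried 37.1% of the members and 28.8% of all autosomal regions. They carried 39.0% of the Input-recurrent regions, members included, which is close to the share of the members. Among the 16 chromosomes with at least 20 Input-recurrent regions, the share of members ran from 16.4% (chromosome 6) to 35.5% (chromosome 13, 11 of 31). Where fewer were Input-recurrent the share varied more, as with 5 of 8 on chromosome 15 (62.5%) and 1 of 13 on chromosome 19 (7.69%). Bovine autosomes have the centromere at the end where the sequence begins. In the first 1 Mb of the chromosomes lay 31 members (12.9%), 101 of the 755 other Input-recurrent regions (13.4%) and 272 of all 4905 autosomal regions (5.55%). Chromosome 14, which also had the most Input-recurrent regions, held 16 of the 31, and chromosome 24 held 6. The other regions of the first 1 Mb were not split by chromosome.

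**Figure D5:**
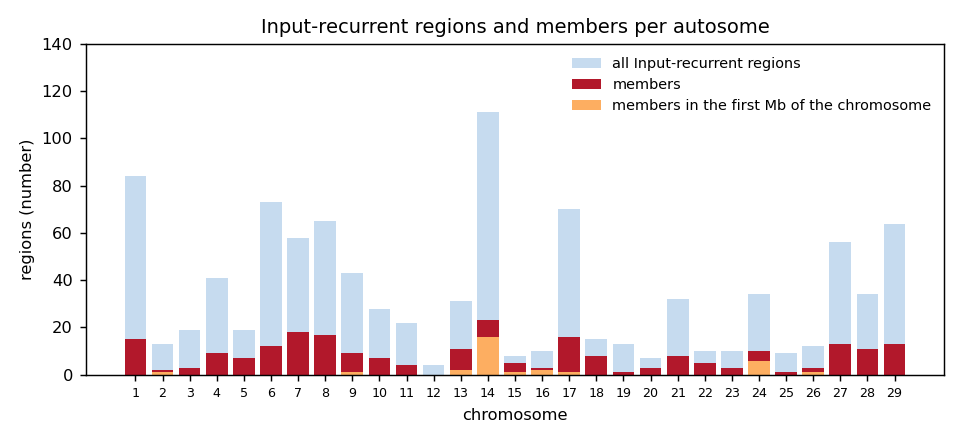
Number of Input-recurrent regions (light bars), members (dark bars, drawn in front) and members in the first Mb (orange) on each autosome. Chromosome 14 has the highest bar for both kinds, with 111 Input-recurrent regions and 23 members, of which 16 lie in the first Mb.

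MAT2A-ChIP specific peaks, as the study defines them, were found in both MAT2A-ChIP libraries and were filtered against the peaks of either Input or IgG control. On autosomes there were 52, of which 29 overlapped an Input peak, 11 an IgG control peak and 12 neither, so a specific peak can lie on a peak of 1 kind of control. By construction none of them can overlap a member, since they hold peaks of both MAT2A-ChIP libraries. Several lay close to one. A member was within 10 kb of 11 of the 52 (21.2%) and within 100 kb of 26 (50%). For the 637 other autosomal MAT2A-ChIP 1 peaks that overlapped a MAT2A-ChIP 2 peak, a member that did not overlap the peak was within 10 kb of 219 (34.4%) and within 100 kb of 409 (64.2%). Both shares were lower for the specific peaks, and the difference was not tested. Of the 240 members, 57 (23.8%) lay within 100 kb of a specific peak, beside 244 of the 755 other Input-recurrent regions (32.3%) and 509 of all 4905 autosomal regions (10.4%). Regions that hold a specific peak are counted in the latter 2 classes and cannot be members. In the following, genes are those that the study's annotation pairs with the specific peak, in an intron or within 100 kb, and a gene was not assigned to the member.

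The closest pair was on chromosome 8. The specific peak at chr8:96227801-96227972, paired with NIPSNAP3A and with ABCA1, which exports cholesterol from cells, scored 74.4 and 62.9 in the MAT2A-ChIP lists. The member chr8:96227251-96227442 lay 358 bp away, with 108.5 in Input 1, 86.9 in Input 2 and 121.8 in IgG control 1, the highest IgG control 1 score among the members. Input and IgG control thus had listed peaks beside a position where neither was listed on the MAT2A-ChIP peak itself. Joining peaks within 500 bp places both in the same region.

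On chromosome 10, the specific peak at chr10:10105977-10106144 was paired with BHMT, which remethylates homocysteine to methionine in the cycle that MAT2A also serves, and with DMGDH, which breaks down the dimethylglycine that BHMT releases. It scored 78.5 and 67.1 in the MAT2A-ChIP lists and overlapped an IgG control peak. The member chr10:10107392-10107684 lay 1.25 kb away and had scores of 60.3 in Input 1 and 97.1 in Input 2 and no antibody peak, with an IgG control 1 peak scoring 66.9 at a distance of 35 bp. On chromosome 23, the specific peak paired with PPARD and DEF6 overlapped an Input peak. PPARD is a nuclear receptor for fatty acids and DEF6 a guanine nucleotide exchange factor of lymphocytes. A member lay 4.94 kb from this peak. That member, chr23:9219874-9220040, had scores of 101.1 in Input 1, 103.9 in Input 2 and a peak of IgG control 1. On chromosome 6, the peak paired with ADAMTS3, a protease that processes procollagen, overlapped an IgG control peak. Its closest member, chr6:89216147-89216382, was 4.99 kb away, with 60.4 and 68.8 in Input 1 and 2 and no antibody peak.

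On chromosome 29, the specific peaks at 30306709 and 30326468, both paired with KIRREL3, a cell adhesion molecule of the immunoglobulin superfamily, lay on Input peaks inside the run of 9 members described above. Their closest member, chr29:30298004-30298177, was 8.53 kb and 28.3 kb away, with scores of 97.7 in Input 1 and 73.7 in Input 2 and no antibody peak. On chromosome 27, the peaks at 28807360 and 28855601, both paired with RNF122, a RING finger protein, also lay on Input peaks. They were beyond the end of the other run of 9, with its last member 15.1 kb from the first of them. Also on chromosome 27, the peaks paired with WRN, a RecQ helicase, had a member 31.8 kb and 36.0 kb away, chr27:26364077-26364272, with 151.4 in Input 1, 152.3 in Input 2 and a MAT2A-ChIP 2 peak. The farther of these specific peaks overlapped an IgG control peak and the nearer neither kind of control. The peak paired with ASCC3, a DNA helicase subunit, overlapped an IgG control peak and had a member 12.6 kb away with 90.2 and 143.3 in Input 1 and 2. The remaining pairs with a gene within the limit were ZNF280B and PRAME on chromosome 17 (member at 52.9 kb), ATP5SL on chromosome 18 (54.7 kb) and, on chromosome 13, SRY (7.60 kb), the name of a gene of the Y chromosome. The peak of ZNF280B and PRAME overlapped an IgG control peak, that of SRY an Input peak and that of ATP5SL neither. The 11 members named beside the specific peaks with a gene had Input 1 scores from 60.3 to 210.7.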

How the data were processed

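ChIP-seq peak lists were analysed for 6 libraries, 1 Input, 1 MAT2A-ChIP and 1 IgG control from each of 2 pools, grouped by their labels. The authors removed adapters from 100-base single reads with bcl2fastq, mapped them with Bowtie 1.1.2 to the assembled chromosomes of bosTau8, and used MACS 1.4.2. Default settings are stated for the MAT2A-ChIP libraries. Whether the Input and IgG control lists were made alike, and whether a control was supplied, is not given in the sources used here, though all 6 lists start near the same score. The deposited score of a peak is -10 times the log10 of its p-value, from 50 at the default threshold. It rises with depth and was not normalized between libraries. The depth behind a peak is unknown, since the lists hold no read counts.

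Peaks were merged and counted with Python 3.11.15, numpy 2.4.6 and scipy 1.17.1. The merging gave the same regions as bedtools 2.31.1, and the rule was tested on simulated lists. The score and width of a region in a library are those of its strongest peak there. The rule used the peak calls of all 6 libraries, so no test was run, and intervals are 95% Wilson intervals for counting error. The members, the rules for naming regions and the alternatives were chosen with earlier results of these data known. Named were the 8 members with the highest percentile of the weaker Input peak, the 5 widest, the member with the highest single peak of each antibody library, the runs with most members (6, since 2 had equal numbers) and genes near the study's specific peaks. Also named were the 4 strongest regions just outside the rule's limit.

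The replicate numbers pair the libraries, since 1 pool supplied all 3. Alternatives were other overlaps, joining distances, score minimums and list lengths, a rule within replicates, and leaving out each library.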

Additional observations from a re-analysis of the deposited data

How the results depend on the processing

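The rule gave 240 members (24.1% of Input-recurrent regions, 44.2% of them without an antibody peak). Of 106 alternative values, 40 stayed within the tolerance, which was 1.5 times either way for the count, the 95% Wilson interval for the shares, and the SD of the Input 1 and Input 2 medians for the scores (0.530) and for the width (0.707 bp, from the strongest Input peaks). In what follows, the medians are the Input 1 score, the Input 2 score and the region width in bp, 88.2, 88.9 and 311.5 under the rule as given. Joining peaks within 500 bp gave 186 (21.2%), with medians of 86.9, 88.3 and 318.5. A minimum score of 70 gave 216, 51.4% of them without an antibody peak, with medians of 112.7, 105.4 and 322. A minimum of 100 gave 172 (28.8%), 52.9% of them without an antibody peak, with 151.7, 145.3 and 332.5. The same minimum in Input only gave 54 (9.05%), 31.5% without an antibody peak, with 151.4, 141.7 and 290.5. Allowing no antibody peak gave 106 (10.7%, by construction 100% without one), with 83.5, 83.5 and 293. A replicate block, in which at most 1 antibody peak was allowed in each pair of libraries from the same pool, gave 310 (31.2%), 34.2% without an antibody peak, with 90.9, 90.1 and 313. Adding chromosome X gave 305, with 86.5, 83.9 and 341. Lists of equal length gave 234, with Input medians of 88.7 and 92.3, and an overlap of 50% of the shorter peak gave 239 and an Input 2 median of 89.8. Chosen after seeing the data, the 1000 highest peaks of each list gave 96 (15.2%), with 146.3, 131.8 and 310.5, and leaving out runs of 3 or more gave 142 (14.3%) and an Input 2 median of 92.0. With 1 library left out at a time, the count was 295 to 755 (29.6 to 48.0%), the share without an antibody peak 41.4 to 70.7%, the Input 1 median 64.96 to 90.2, the Input 2 median 66.8 to 91.7 and the width 280 to 318 bp. The highest counts came without Input 1 (611) and without Input 2 (755), since a single Input peak then sufficed. Leaving out an antibody library loosened the rule by construction, since at most 1 peak was still allowed among fewer libraries. The replicate block loosened it too, as it allowed 1 antibody peak in each pool. For the other shifts, fewer peaks or regions entered by construction under a minimum score or a shorter list, and any further cause was not tested. Peak lists without read counts cannot separate an absent peak from one just below the threshold.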

Other observations

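Chromosome X was not part of the rule. It held 714 regions, of which 250 were recurrent in Input. Of these 250, 65 (26%) had a peak of at most 1 antibody library, 29 had none and 105 (42.0%) had all 4. The 65 regions had median scores of 82.4 in Input 1 and 72.6 in Input 2 and a median width of 475 bp, against 311.5 bp for the members on autosomes. The difference in width was not tested.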
